A study of Mus musculus with 11 samples.

Results

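The Myc network was described here through 10 genes, taken by their symbols from a table of read counts for 27687 genes. They are the oncogenes Myc, Mycn and Mycl1, their partner Max, and the antagonists Mxd1, Mxd3, Mxd4, Mxi1, Mnt and Mga. Each symbol matched 1 gene, and all 10 were among the 16241 genes that passed the filter on low counts and were tested. RNA was sequenced from 11 mouse high-grade gliomas, 9 labelled as having prolonged Ezh2 knockdown and 2 labelled as controls without it. All 11 grew in the brains of NOD-SCID mice, which lack functional B and T cells, after intracranial injection of glioma-initiating cells. These cells were neural stem cells of the subventricular zone from 7-day-old mice with conditional p53, Ink4a/Arf, Krasv12 and LucR alleles, which had been exposed in culture to lentiviral Cre under the CMV promoter. Cells of both groups carried FH1-tUTG-shEzh2, a hairpin against Ezh2 that doxycycline switches on, and had been sorted for GFP. The labels give doxycycline at 2 mg/ml with 1% sucrose in the drinking water for every tumour, whereas the design text says that mice were treated with or without it, so that an effect of the drug and one of the hairpin cannot be told apart.

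Proteins of the Myc family bind DNA as dimers with Max at the E-box, the sequence CACGTG, and raise the transcription of genes for growth, ribosome assembly and metabolism. Proteins of the Mxd family, Mnt and Mga compete for Max and repress many of the same genes. Mycn is the family member known for the expansion of neural progenitors in the embryonic brain, and Myc is known to promote the growth of glioma cells. Ezh2 is the methyltransferase of Polycomb repressive complex 2, which silences genes through methylation of histone H3.

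Of the 10 genes, 1 rose in the knockdown tumours, none fell and 9 did not pass the test. The gene that rose was Mxd3, at 4.20 times the control level. Among all tested genes 23.3% passed the same edgeR quasi-likelihood test at an adjusted p under 0.05 (Benjamini-Hochberg), and 10.3% passed as higher, so that the 1 member of 10 that rose was at the background for genes that rose. The median log2 fold change of the 10 genes was -0.02, against 0.07 for all tested genes. In 2 members, Mxd3 and Mxd4, no knockdown tumour overlapped a control in level, and 27.2% of all tested genes showed such a gap. With control 1 left out, 0 members passed by edgeR, when 7.61% of all tested genes did, and without control 2 Mxd4 passed and Mxd3 did not, at a background of 10.4%.

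**Figure D1:**
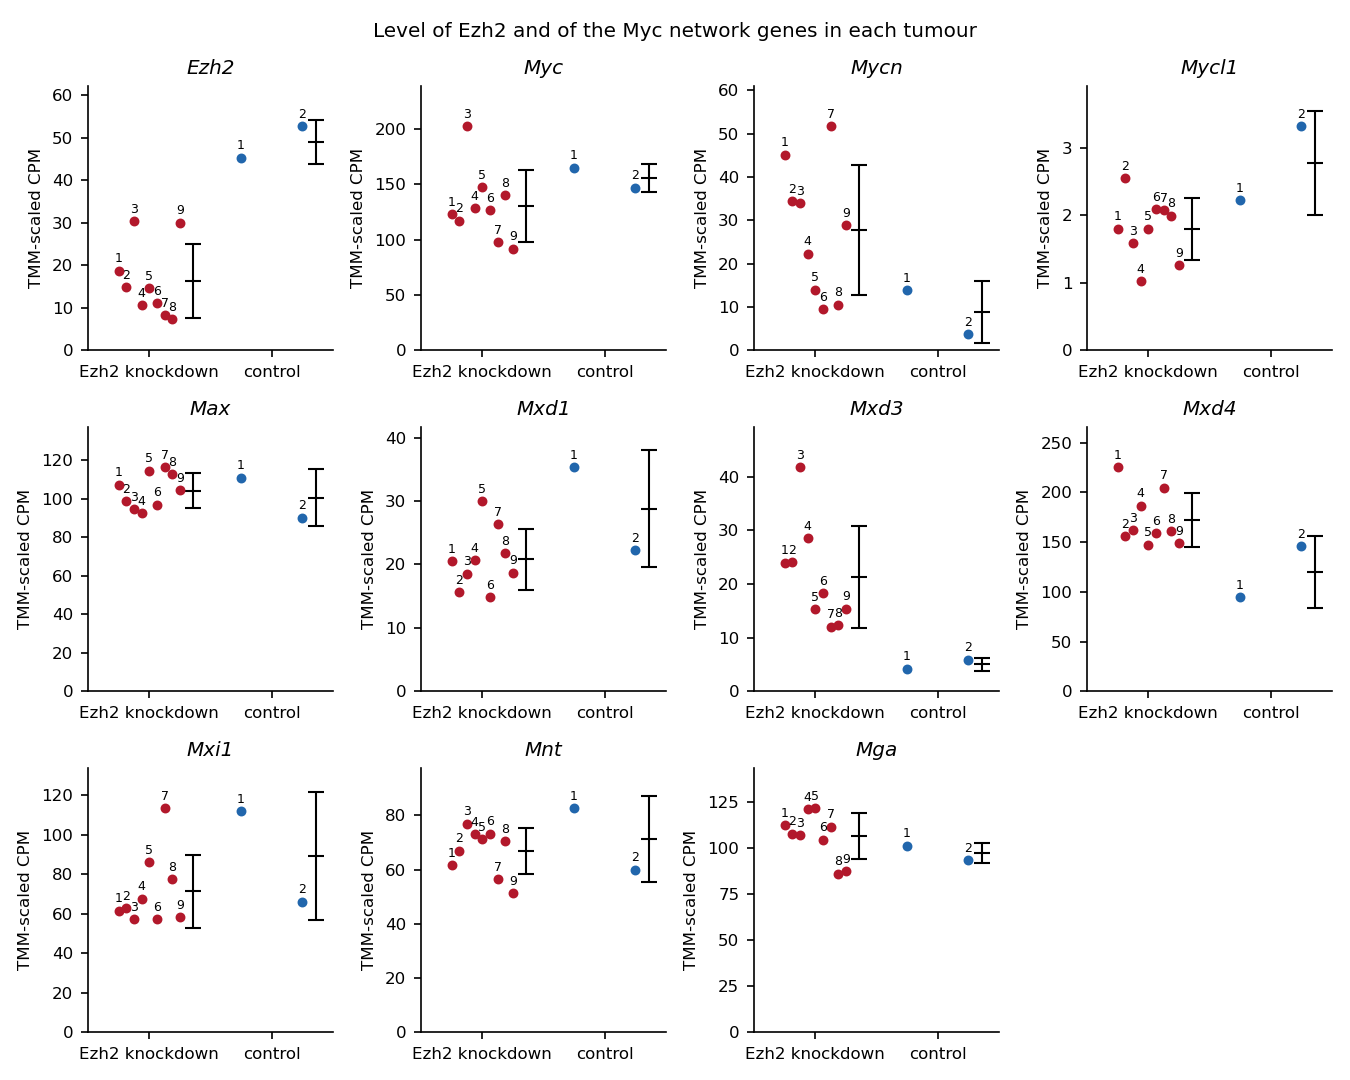
Level in TMM-scaled CPM (counts scaled to library size, vertical axes from 0) of Ezh2 and the 10 Myc network genes in each tumour, numbered by replicate, with 9 Ezh2 knockdown tumours in red on the left and 2 controls in blue on the right of each panel; bars give the mean ± SD. Mxd3 lies between 12.1 and 41.7 CPM in the knockdown tumours, above both controls, while Mycn spreads from 9.45 to 51.7 CPM and overlaps control 1.

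The target of the hairpin was checked first. In CPM, read counts scaled by library size and TMM factor, Ezh2 ran from 7.27 CPM in knockdown 8 over a median of 14.6 CPM to 30.4 CPM in knockdown 3, against 45.3 and 52.7 CPM in the controls (log2 fold change -1.59 ± 0.44 SE, edgeR, adjusted p = 0.023). All 9 knockdown tumours were below both controls, and with 1 control left out the value was -1.70 (control 1 out, adjusted p = 0.11) or -1.48 (control 2 out, adjusted p = 0.14). The libraries held between 11209233 and 18638382 counts. The mitochondrially encoded share was between 3.43% and 13.5% in the knockdown tumours, against 4.28% and 5.45% in the controls. Xist, the RNA of the inactive X chromosome, had 2 to 14 reads in knockdown tumours 1, 7, 8 and 9 and at least 600 in the other libraries; without those 4 tumours 1 member, Mxd3, again passed. Separate cultures or donors behind the tumours are not named in the labels, so that p-values measure only how these samples vary, and part of that may be technical.

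Of 12 glioma and neural stem markers, all were detected, 5 fell and 2 rose, and their summed level was 3183 to 4592 CPM in the knockdown tumours and 7084 to 8221 CPM in the controls. Markers of some other cell types also differed between the groups, to be read beside the background of 23.3% of all tested genes that passed. Of the neutrophil markers 12 of 14 were tested and 9 fell, with summed levels of 30.4 to 110.0 CPM in the knockdown tumours, where Ly6g was at 0, and 215.8 to 294.1 CPM in the controls. Of 16 macrophage and microglia markers 12 fell (572 to 1467 CPM in the knockdown tumours, 1368 to 2824 CPM in the controls), and of 9 mast cell markers 8 fell (13.7 to 74.1 CPM in the knockdown tumours, 212 to 288 CPM in the controls). Of 8 tested oligodendrocyte markers 3 rose (280 to 440 CPM in the knockdown tumours, 107 to 132 CPM in the controls), as did 3 of 11 neuron markers (79.4 to 486 CPM in the knockdown tumours, 165 to 235 CPM in the controls). Of 12 endothelial and pericyte markers 2 rose and 1 fell (563 to 1006 CPM in the knockdown tumours, 580.1 to 649.9 CPM in the controls). For the neuron list and for the endothelial and pericyte list, the share that passed was near the background. The summed levels of the groups overlapped in both of these lists. Of 10 lymphocyte markers 4 were tested, of which 1 rose and 2 fell (5.58 to 12.3 CPM in the knockdown tumours, 11.1 to 24.1 CPM in the controls), and none of 8 astrocyte markers passed (514 to 1390 CPM in the knockdown tumours, 817 to 923 CPM in the controls). In bulk tumours, fewer cells of a type and less RNA per cell cannot be told apart, and the part of these cells in the levels given next was not tested.

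Myc, the most abundant oncogene of the family here (ENSMUSG00000022346, mm9 chromosome 15, 61816946 to 61821929), did not change beyond the spread. Its level was 92.0 CPM in knockdown 9, the lowest, 127 CPM at the median and 202 CPM in knockdown 3, the highest, against 165 CPM in control 1 and 147 CPM in control 2. Knockdown 3 stood above both controls and 7 of the 9 knockdown tumours below both. The group means were 130.5 ± 32.3 CPM (SD, n = 9) in the knockdown tumours and 156.0 ± 12.7 CPM (SD, n = 2) in the controls, and the log2 fold change was -0.26 ± 0.23 (SE, edgeR, adjusted p = 0.44).

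Mycn (ENSMUSG00000037169, mm9 chromosome 12, 12942902 to 12948720) varied more among the knockdown tumours than any other member. It stood at 9.45 CPM in knockdown 6, 28.9 CPM at the median and 51.7 CPM in knockdown 7, against 13.9 CPM in control 1 and 3.82 CPM in control 2. In 7 of 9 knockdown tumours Mycn was above both controls, and knockdown 6 and knockdown 8, at 10.5 CPM, lay between them. The count of 7 includes knockdown 5, which at 13.97 CPM was nearly level with control 1, at 13.92 CPM. The means were 27.8 ± 15.1 CPM (SD, n = 9) in the knockdown tumours and 8.87 ± 7.14 CPM (SD, n = 2) in the controls. The log2 fold change of 1.65 ± 0.71 (SE) did not pass the edgeR test (adjusted p = 0.11), whereas DESeq2 called it (log2 fold change 1.61, adjusted p = 0.035, at a background of 29.9% of tested genes). Its value depended on the controls, at 2.86 when control 1 was left out (adjusted p = 0.12) and 0.99 when control 2 was (adjusted p = 0.48).

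Mycl1, the third oncogene of the family (current symbol Mycl), was scarce, with 15 to 53 reads per library. Its level was 1.03 CPM in knockdown 4, 1.80 CPM at the median and 2.55 CPM in knockdown 2, against 2.23 CPM in control 1 and 3.32 CPM in control 2. Apart from knockdown 2, the knockdown tumours were below both controls (log2 fold change -0.63 ± 0.32 SE, edgeR, adjusted p = 0.18).

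Per kilobase of exon, Myc supplied most of the oncogene RNA of the family in each tumour. Exon lengths were taken from GENCODE M21, on a later build than the counts. The summed level of Myc, Mycn and Mycl1 was 56.9 ± 11.7 CPM per kb (SD, n = 9) in the knockdown tumours and 60.8 ± 6.66 CPM per kb (SD, n = 2) in the controls, with the highest value, 85.2 CPM per kb, in knockdown 3. Mycn made up 5.74% of that sum in knockdown 6, 12.5% at the median and 30.1% in knockdown 7, against 6.45% in control 1 and 2.07% in control 2. Knockdown 1 (23.1%), knockdown 9 (20.4%) and knockdown 2 (19.3%) followed knockdown 7, and knockdown 6 and knockdown 8 (5.77%) lay within the range of the controls.

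**Figure D2:**
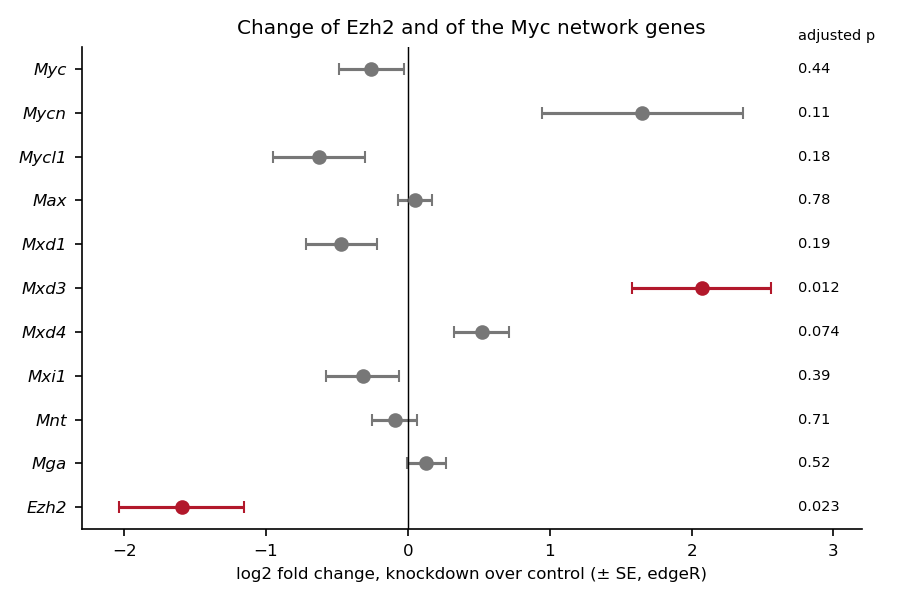
Fitted log2 fold change of each gene, knockdown over control (horizontal axis), with its SE as a bar and the adjusted p from edgeR at the right; red marks genes past the threshold of 0.05. Mxd3 at 2.07 and Ezh2 at -1.59 passed, and Mycn at 1.65 did not.

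Max, the dimerisation partner that the whole network shares (mm9 chromosome 12, 78038256 to 78063235), was among the steadiest of these genes. It ranged from 92.6 CPM in knockdown 4 over a median of 104.5 CPM to 116 CPM in knockdown 7, against 111 and 90.2 CPM in the controls. The groups overlapped, at a log2 fold change of 0.05 ± 0.12 (SE, edgeR, adjusted p = 0.78), which turned to -0.09 without control 2. Its coefficient of variation over the knockdown tumours was 8.61%, and 6.37% of the genes with at least 1 CPM varied less; the median of those genes was 20.6%. By the same measure Mycn stood at 54.1%, Mxd3 at 44.8% and Myc at 24.8%.

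Among the antagonists, Mxd3 rose. Mxd3 is a repressor of the Mxd family that is known to be expressed in proliferating cells in S phase, unlike its relatives, which accompany differentiation. It lies on mm9 chromosome 13, 55426529 to 55431119 (ENSMUSG00000021485). Its level was 12.1 CPM in knockdown 7, 18.4 CPM at the median and 41.7 CPM in knockdown 3, against 4.23 CPM in control 1 and 5.89 CPM in control 2. All 9 knockdown tumours were above both controls, and knockdown 4 (28.6 CPM), knockdown 2 (24.1 CPM) and knockdown 1 (24.0 CPM) came next after knockdown 3. The means were 21.3 ± 9.56 CPM (SD, n = 9) in the knockdown tumours and 5.06 ± 1.17 CPM (SD, n = 2) in the controls, and the log2 fold change was 2.07 ± 0.49 (SE, edgeR, adjusted p = 0.012). The call needed both controls: the value was 1.85 when control 1 was left out (adjusted p = 0.13) and 2.33 when control 2 was (adjusted p = 0.062). Without knockdown 3 it was 1.88 (adjusted p = 0.0064).

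Markers of proliferation are given beside Mxd3. The summed level of 12 such genes was 804 CPM in knockdown 7, 1488 CPM at the median and 2212 CPM in knockdown 3, against 636 and 960 CPM in the controls, and 8 of 9 knockdown tumours were above both controls. The lowest and the highest knockdown tumour were the same for these markers as for Mxd3. Of the 12 markers 3 rose and none fell, among them Cdk1, the mitotic kinase (log2 fold change 0.99 ± 0.22 SE, edgeR, adjusted p = 0.0089), and Birc5, survivin (1.20 ± 0.36, adjusted p = 0.032). The share that passed was 25%, beside the background of 23.3%, and the median log2 fold change was 0.83. Leaving out either control lowered the number that passed, among these markers and among all tested genes. Whether the share of cycling cells accounts for the level of Mxd3 was not tested. The annotated gene Prelid1 overlaps 104 of the 4591 bases spanned by Mxd3, and if strand was not used in counting, their reads there cannot be told apart; Prelid1 stood at 183 ± 28.4 CPM (SD, n = 9) in the knockdown tumours and 188 ± 6.76 CPM (SD, n = 2) in the controls.

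Mxd4, an antagonist associated with differentiation, was above both controls in all 9 knockdown tumours, but its change did not pass. It had 147.5 CPM in knockdown 5, 161 CPM at the median and 225 CPM in knockdown 1, against 94.6 CPM in control 1 and 146 CPM in control 2. The gap between knockdown 5 and control 2 was narrow. The log2 fold change was 0.52 ± 0.20 (SE, edgeR, adjusted p = 0.074), at 0.24 when control 1 was left out (adjusted p = 0.58) and 0.86 when control 2 was (adjusted p = 0.048).

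Mxd1, a repressor of the same family that rises in differentiating myeloid cells, had 14.9 CPM in knockdown 6, 20.5 CPM at the median and 30.0 CPM in knockdown 5, against 35.3 CPM in control 1 and 22.3 CPM in control 2. The groups overlapped, and the log2 fold change of -0.47 ± 0.25 (SE) did not pass (edgeR, adjusted p = 0.19). It was -0.10 without control 1 and -0.77 without control 2. The summed level of the neutrophil markers given above was lower in each knockdown tumour than in either control. Whether these cells have a part in the level of Mxd1 was not tested. Mxi1, the Max interactor also called Mxd2, had 57.3 CPM in knockdown 6, 62.8 CPM at the median and 113 CPM in knockdown 7, against 112 CPM in control 1 and 66.2 CPM in control 2. Its 2 controls lay nearly as far apart as the knockdown tumours, and its log2 fold change was -0.32 ± 0.26 (SE, edgeR, adjusted p = 0.39), or 0.11 without control 1.

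Mnt, a broadly expressed repressor, ranged from 51.4 CPM in knockdown 9 over 70.5 CPM at the median to 76.9 CPM in knockdown 3, against 82.6 and 60.0 CPM in the controls. The groups overlapped (log2 fold change -0.09 ± 0.16 SE, edgeR, adjusted p = 0.71). Mga, a large protein with a T-box domain beside its Max-binding domain that is also part of a noncanonical Polycomb complex, ranged from 86.3 CPM in knockdown 8 over 108 CPM to 122 CPM in knockdown 5, against 102 and 93.7 CPM in the controls. It was above both controls in 7 tumours and below both in 2, knockdown 8 and knockdown 9 (log2 fold change 0.13 ± 0.14 SE, edgeR, adjusted p = 0.52).

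In level per kilobase, the order of the 10 genes in the knockdown tumours was Myc (48.0 ± 11.9 CPM per kb, SD, n = 9), Max (29.0 ± 2.49), Mxd4 (20.3 ± 3.19), Mnt (14.5 ± 1.85), Mxi1 (10.5 ± 2.72), Mxd3 (9.00 ± 4.04), Mycn (8.44 ± 4.57), Mga (6.96 ± 0.826), Mxd1 (2.94 ± 0.685) and Mycl1 (0.445 ± 0.114). The 4 neighbours from Mxi1 to Mga differed, one to the next, by less than the larger of their SDs. In the controls Mycn, at 2.69 ± 2.17 CPM per kb, and Mxd3, at 2.14 ± 0.495 (SD, n = 2), lay below Mxd1, at 4.07 ± 1.30. Lengths covered all annotated exons of a gene, so that genes with long alternative exons come out low.

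The upstream sequences of the members that moved most, or came close to the threshold, are shown because E2F factors, which drive S phase genes, and the Myc network itself are known to act through short words there. They are the 250 bases before the annotated start from RefSeq on GRCm38.p6, a later build than that of the counts, and capitals mark the words searched on both strands. The words were CACGTG, the E-box, and TTTCCCGC, TTTGGCGC, TTTGCCGC and TTTCGCGC, variants of the E2F site. Entries were found for 9 of the 10 members. Mycn is read from chr12:12941837-12942086 on the minus strand, Mxd3 from chr13:55329732-55329981 on the minus strand and Mxd4 from chr5:34187711-34187960 on the minus strand.
Mycn: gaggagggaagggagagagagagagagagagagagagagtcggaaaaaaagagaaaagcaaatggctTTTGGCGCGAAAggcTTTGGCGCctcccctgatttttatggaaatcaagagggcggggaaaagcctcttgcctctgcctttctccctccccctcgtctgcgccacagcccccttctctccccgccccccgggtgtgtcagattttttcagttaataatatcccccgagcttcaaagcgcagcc
Mxd3: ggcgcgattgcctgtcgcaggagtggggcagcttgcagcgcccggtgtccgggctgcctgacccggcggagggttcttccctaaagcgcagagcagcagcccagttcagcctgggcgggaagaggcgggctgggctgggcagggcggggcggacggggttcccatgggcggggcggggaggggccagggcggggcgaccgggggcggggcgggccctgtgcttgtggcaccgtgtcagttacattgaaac
Mxd4: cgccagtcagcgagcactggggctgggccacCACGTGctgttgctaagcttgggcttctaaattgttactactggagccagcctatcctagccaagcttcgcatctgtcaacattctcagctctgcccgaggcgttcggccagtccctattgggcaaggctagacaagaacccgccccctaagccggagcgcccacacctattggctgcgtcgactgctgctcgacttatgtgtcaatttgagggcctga
Mycn held TTTGGCGC at 183 and again at 168 bases before the start, with TTTCGCGC on the opposite strand overlapping the copy at 183, at 179. Of all genes in the RefSeq table, 2.16% held any of the 4 E2F words in this window and 6.86% held the E-box. Mxd4 held the E-box at 219 bases before the start and Mnt at 123, and the Mxd3 window held none of the 5 words. These matches describe the letters only.

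Myc lies on chromosome 15, which was low in 2 of the knockdown tumours. For each tumour the deviation of each gene's log2(CPM + 1) from its median over the 9 knockdown tumours was taken, and the median over the 583 other genes of the chromosome with at least 1 CPM was -0.22 in knockdown 8 and -0.32 in knockdown 9. The other 7 knockdown tumours lay between 0.00 and 0.11, control 1 at 0.11 and control 2 at -0.03. In knockdown 9, 74.8% of the chromosome's genes were below their median, and in knockdown 8 it was 70.9%. Among the 180 combinations of 20 chromosomes and 9 knockdown tumours these were the lowest values, and the next was -0.16, on chromosome 7 in knockdown 3. The controls were not ranked, and chromosome 4, which carries Mycl1, was at -0.289 in control 1 and -0.071 in control 2. That chromosome 15 is low in these 2 tumours was known from these data beforehand, so that the rank is a description only.

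Myc itself did not follow its chromosome in both tumours. In knockdown 9 it deviated by -0.46, the lowest of the knockdown tumours, or by -0.14 beyond the chromosome. In knockdown 8, with the chromosome at -0.22, Myc deviated by 0.15 in the upward direction, 0.37 above the chromosome. Knockdown 7 had Myc at -0.37 with the chromosome at 0.00. The 53 genes within 10 Mb of Myc had a median of -0.43 in knockdown 9 and -0.15 in knockdown 8, against -0.11 in control 1 and -0.02 in control 2. The controls differed by side, at -0.245 and -0.293 in the 10 Mb upstream and at 0.260 and 0.519 in the 10 Mb downstream. Without both tumours the log2 fold change of Myc was -0.21 (edgeR, adjusted p = 0.51), close to the -0.26 with them.

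**Figure D3:**
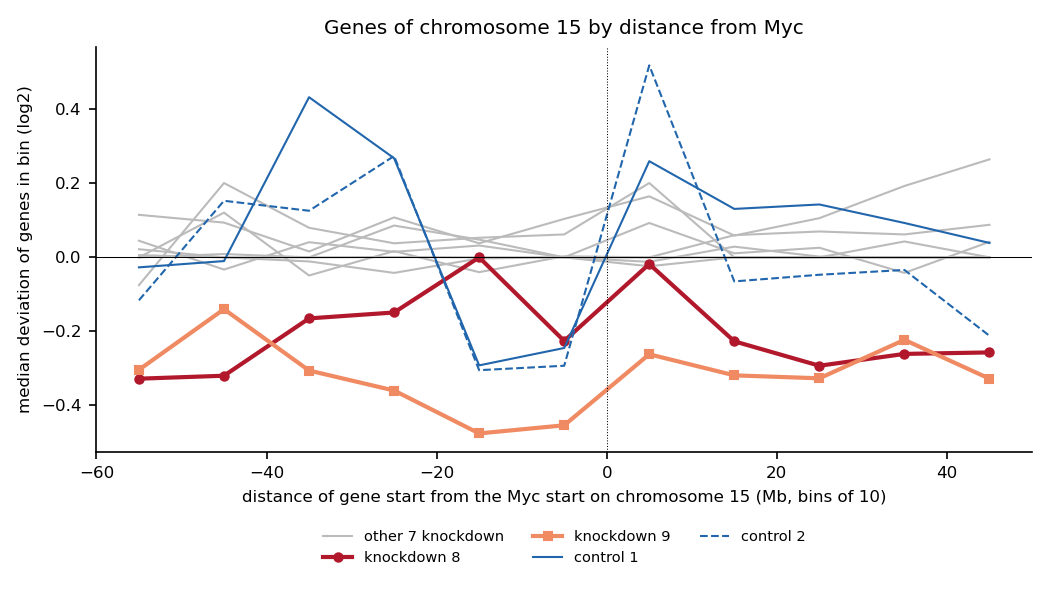
Median deviation (log2, vertical axis) of chromosome 15 genes in bins of 10 Mb by the distance of their start from that of Myc (horizontal axis, Mb), with knockdown 8 and 9 in red and orange, the other 7 knockdown tumours in grey and the controls in blue. Knockdown 9 is below 0 in each bin, from -0.48 to -0.14, and knockdown 8 in all but the bin 20 to 10 Mb upstream, which held 16 genes and where it is at 0.00. There control 1 and control 2 are at -0.292 and -0.305. In the bin 10 to 0 Mb upstream they are at -0.245 and -0.293, against -0.226 in knockdown 8.

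Knockdown 3 had the highest Myc and the highest Mxd3, and among the knockdown tumours the chromosomes of both genes were the highest there as well. The median of chromosome 13, which carries Mxd3, was 0.25 in knockdown 3 and between -0.043 and 0.015 in the other 8 knockdown tumours. Mxd3 deviated by 1.14 in knockdown 3, which is 0.90 beyond its chromosome. The deviation of Myc there was 0.67, against 0.11 for chromosome 15 and 0.13 for the 53 genes within 10 Mb of Myc. Pvt1, a long noncoding RNA next to Myc (mm9 chromosome 15, 61869542 to 62209651) that is often gained together with it in cancers and was chosen here after its values were seen, stood at 179 CPM in knockdown 3. That was 2.66 times the next highest knockdown tumour, knockdown 5 at 67.2 CPM, and the controls had 49.5 and 69.2 CPM. Knockdown 9 had the lowest Pvt1, at 18.6 CPM, as it had the lowest Myc. Between the groups Pvt1 did not differ (log2 fold change -0.05 ± 0.63 SE, edgeR, adjusted p = 0.96). Whether gene copy number has a part in any of these levels was not tested.

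**Figure D4:**
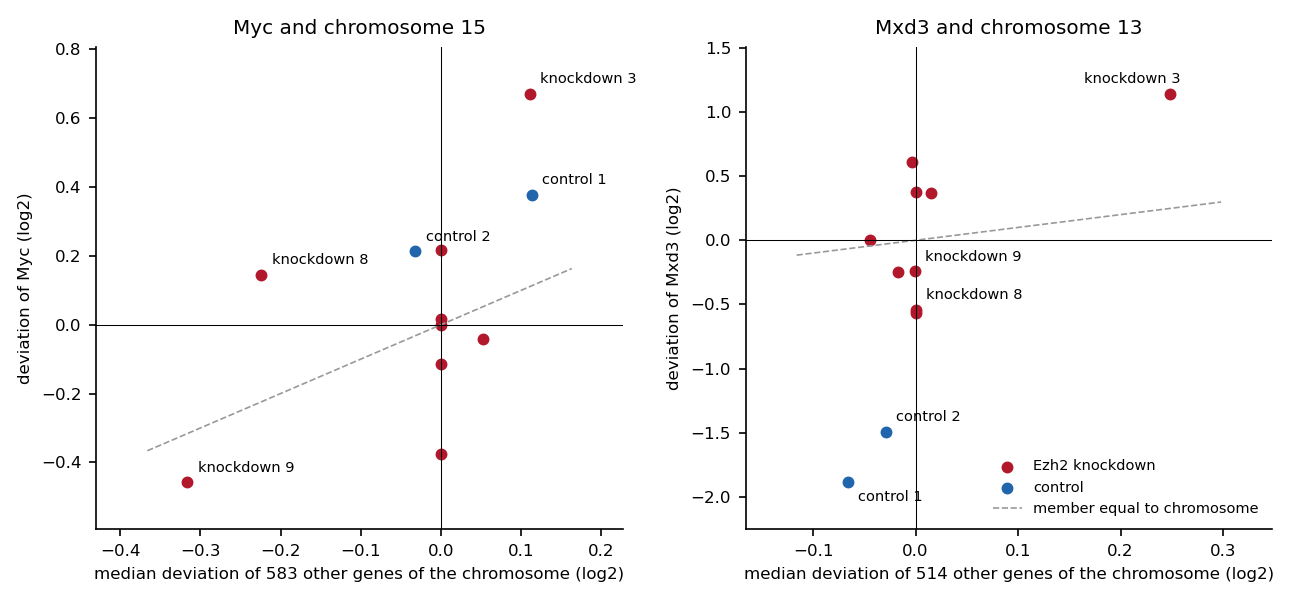
Deviation of Myc (left) and Mxd3 (right) from its median over the knockdown tumours (log2, vertical axes) against the median deviation of the other genes of its chromosome (log2, horizontal axes), with knockdown tumours in red and controls in blue; the dashed line marks equal values. Knockdown 8 lies above the line for Myc, at 0.15 against -0.22, and knockdown 3 lies above it for both genes.

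Among the 9 knockdown tumours, no relation of a member with the remaining level of Ezh2 passed the test, though 9 tumours can miss a moderate relation. Of 10 relations none passed (exact permutation over 362880 pairings, two-sided, Benjamini-Hochberg over 10), the smallest adjusted p being 0.66. The largest in size was that of Mxi1, with Pearson's r of -0.62 (exact permutation p = 0.0725, r = -0.495 without the 2 tumours farthest in Ezh2). Its Spearman's rho was -0.63 (exact permutation p = 0.076). Mxd3 had Pearson's r of 0.55 (exact permutation p = 0.13, r = 0.63 without the same 2 tumours) and Spearman's rho of 0.58 (exact permutation p = 0.11). Of the 45 pairs of members none passed after adjustment either, and 5 had an unadjusted p under 0.05. The pair with the largest Pearson's r was Myc and Mnt, with r = 0.85 (exact permutation p = 0.0025, adjusted p = 0.11) and rho = 0.83 (exact permutation p = 0.0083, adjusted p = 0.12), and r = 0.80 without the 2 tumours farthest in Myc. Max and Mxd3 went in opposite directions, with r = -0.81 (exact permutation p = 0.0098, adjusted p = 0.15) and rho = -0.88 (exact permutation p = 0.0031, adjusted p = 0.069), and r = -0.74 without the 2 farthest tumours. Mxd1 and Mxi1 had r = 0.81 (exact permutation p = 0.0069, adjusted p = 0.15) and rho = 0.88 (exact permutation p = 0.0031, adjusted p = 0.069). For Myc and Mycn r was -0.27 (exact permutation p = 0.50, adjusted p = 0.88), with rho = -0.47 (exact permutation p = 0.21) and r = -0.76 without the 2 tumours farthest in Myc.

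The genes whose pattern over the 9 knockdown tumours was most like that of a member were taken from 12188 genes with at least 4 CPM, as a description with no test. For Mycn they were Abat, which degrades the transmitter GABA (r = 0.98), Ngfr, the p75 neurotrophin receptor (r = 0.96), and Hpcal1, a neuronal calcium sensor on the same chromosome 12 (r = 0.96). Ngfr was 334.5 CPM in knockdown 7, where Mycn was highest, and 11.2 CPM in knockdown 6, where Mycn was lowest. For Myc they were Eri1, an exonuclease of histone mRNA (r = 0.96), Thoc6, of the mRNA export complex THO (r = 0.95), and Papd4, a poly(A) polymerase (r = 0.95). For Mxd3 they were Zfp101 (r = 0.99), 2010317E24Rik (r = 0.98) and Ankrd32 (r = 0.98), which lies on chromosome 13 like Mxd3. Ankrd32 was 41.3 CPM in knockdown 3 and 18.6 CPM in knockdown 7. Taking the highest r out of 12188 genes over only 9 tumours gives high values even among unrelated genes. The r values above therefore do not show a link with a member.

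Cofactors of the network changed in few cases. Of 15 genes of the extended network (Mlx, the Mondo proteins and bound repressors) 2 rose and none fell, 13.3% against the background of 23.3%. The deacetylase Hdac1, which Mxd proteins recruit through Sin3, rose to 30.8 ± 1.96 CPM (SD, n = 9) in the knockdown tumours, against 20.2 ± 2.05 CPM (SD, n = 2) in the controls (log2 fold change 0.61 ± 0.12 SE, edgeR, adjusted p = 0.0053). E2f6, a repressor found in a complex with Mga and Max, also rose (0.52 ± 0.17, adjusted p = 0.047). Of 18 coactivators Dmap1, a subunit of the TIP60 acetyltransferase complex, rose by 0.56 ± 0.13 (adjusted p = 0.012) and Cdk9, the kinase that releases paused RNA polymerase II, fell by 0.41 on the log2 scale (SE 0.11, adjusted p = 0.018). Of 19 genes of Myc protein turnover 1 rose, Skp2, a ubiquitin ligase subunit that targets Myc and the inhibitor p27. Skp2 had 85.0 ± 22.6 CPM (SD, n = 9) in the knockdown tumours and 29.7 ± 4.15 CPM (SD, n = 2) in the controls, and its log2 fold change was 1.51 ± 0.33 (SE, adjusted p = 0.0080). Over these 3 lists together fewer genes passed when either control was left out, as among all tested genes.

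Genes of ribosome assembly, the class of Myc targets that is found in most tissues, moved little. Of 50 such genes 1 rose and 2 fell, 6.00% against the background of 23.3%, with a median log2 fold change of 0.00. Rcl1, a processing factor of ribosomal RNA, rose by 0.90 ± 0.17 (SE, edgeR, adjusted p = 0.0034), while the helicase Ddx21 fell by 0.68 (SE 0.21, adjusted p = 0.035) and the nucleolar methyltransferase Nop2 fell by 0.51 (SE 0.16, adjusted p = 0.038). Of 28 targets in translation and protein folding 1 rose and 1 fell, 7.14%, with a median of -0.06. These were Tfam, the packaging factor of mitochondrial DNA (0.50 ± 0.13, adjusted p = 0.015), and Aimp2, a scaffold of tRNA synthetases (-0.44 ± 0.15, adjusted p = 0.049). When either control was left out fewer genes of the 2 lists passed, and so did fewer of all tested genes.

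Metabolic targets went both ways. Of 35 genes 3 rose and 7 fell, 28.6% and near the background, with a median of -0.11. Among those that rose were Prps2 of nucleotide synthesis (log2 fold change 0.67 ± 0.17 SE, edgeR, adjusted p = 0.017) and Shmt1 of one-carbon metabolism (1.14, adjusted p = 0.021). Of the 7 that fell 6 belong to glucose uptake and glycolysis, namely Slc2a1 (-1.76), Hk2 (-1.19 ± 0.30, adjusted p = 0.015), Tpi1 (-1.18 ± 0.29, adjusted p = 0.015), Pkm2 (-1.10), Eno1 (-1.02) and Ldha (-0.85), which respond to low oxygen as well as to Myc. The seventh was Gart of purine synthesis (-0.56). Fewer of the 35 passed without control 1 and more without control 2, whereas fewer of all tested genes passed in both fits.

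Of 18 cell cycle targets 6 rose and 3 fell, 50% against the background of 23.3%, with a median of 0.36. Cks1b and Cks2, small subunits of cyclin-dependent kinases, rose by 0.69 ± 0.17 (SE, edgeR, adjusted p = 0.013) and 1.03 ± 0.28 (adjusted p = 0.020), as did Ccne1 (0.77), Mcm5 (0.94), Plk4 (0.87) and Cdca7 (1.14). Ccnd2, cyclin D2, which Myc is known to induce, had 235 ± 86.3 CPM (SD, n = 9) in the knockdown tumours and 871 ± 300 CPM (SD, n = 2) in the controls, and its log2 fold change was -1.89 ± 0.31 (SE, adjusted p = 0.0018). Id2 (-1.04 ± 0.25, adjusted p = 0.012) and Ccnd1, cyclin D1 (-0.98), fell too. With either control left out fewer of the 18 passed, which also held for all tested genes.

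Over the 4 target lists together, which hold 131 genes, 11 rose and 13 fell, 18.3% against the background of 23.3%, with a median log2 fold change of -0.01. Of 18 genes that Myc represses 2 rose and 3 fell, 27.8% and near the same background, with a median of 0.03. Pdgfrb, a growth factor receptor that also marks pericytes, rose by 2.22 ± 0.49 (SE, edgeR, adjusted p = 0.0082) and Txnip, a regulator of glucose uptake, rose by 1.28 ± 0.42 (adjusted p = 0.045). The collagen chain Col1a2 fell by 4.18 (SE 0.60, adjusted p = 0.00082), Itgb1, the integrin beta-1 chain, fell by 0.86 (SE 0.19, adjusted p = 0.0086) and Gadd45b fell by 1.57 (adjusted p = 0.026). Of the repressed genes none rose and 1 fell without control 1, where 7.61% of all tested genes passed, and 1 rose and 3 fell without control 2, where 10.4% did.

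**Figure D5:**
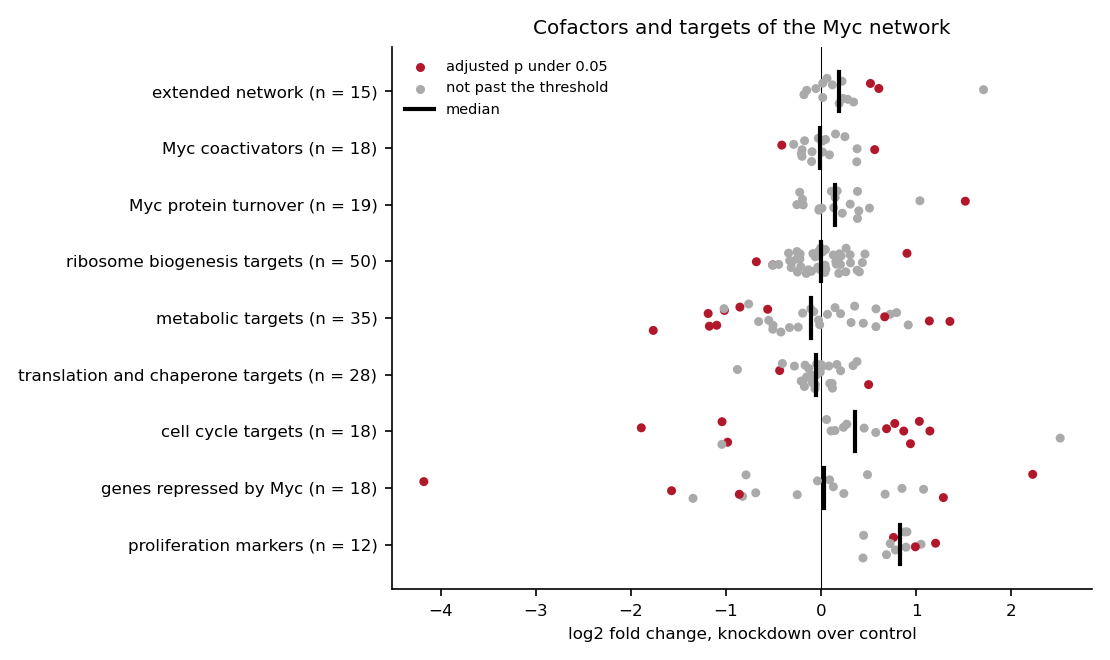
Fitted log2 fold change, knockdown over control (horizontal axis), of each tested gene of 9 lists of network cofactors, Myc targets, genes repressed by Myc and proliferation markers (rows, n tested); red points passed the edgeR test at an adjusted p under 0.05, grey points did not, and the black bar is the median of the list. Ribosome assembly genes centre at 0.00, and the cell cycle targets spread from -1.89 for Ccnd2 upward.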

How the data were processed

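RNA was counted in 9 Ezh2 knockdown and 2 control tumours. The deposited table gives whole-number read counts per Ensembl gene with symbols and mm9 coordinates. Per the submitters' processing notes, TopHat 1.4.0, HTSeq and mm9 were used; settings, strand use and read filters were not given in the sources used here. Per the labels' protocols, TRIzol RNA went into Illumina TruSeq RNA libraries, sequenced on a HiSeq2000. Groups and replicate numbers come from the sample titles, and all 11 count columns matched a sample.

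Members and gene lists were chosen with earlier results of these data known. The test on the counts was that of edgeR 4.0.16 under R 4.3.3: filterByExpr kept 16241 of 27687 genes (99.9% of counts), TMM factors lay between 0.919 and 1.077, and the quasi-likelihood F-test had no covariates, with Benjamini-Hochberg adjustment over all tested genes and a threshold of 0.05. SEs are the log2 fold change divided by the square root of F. A count of 3, the floor, corresponded to 0.162 to 0.273 CPM. DESeq2 1.42.0, limma-voom (limma 3.58.1), RLE factors, no filter, a replicate block and leaving tumours out were alternatives. The edgeR step was tested on simulated data. Pearson's r of log2 CPM was 0.926 to 0.984 among the knockdown tumours and 0.964 between the controls; no pair of a group was a copy, chi-square over its degrees of freedom being at least 11.2. Chromosome medians used log2(CPM + 1). From each list of cofactors, targets and proliferation markers, up to 2 risen and 2 fallen genes, by smallest p, were to be named; further called genes of the metabolic and cell cycle lists, and Gadd45b, were named after their values were seen, and from the marker lists of cell types only counts, summed levels and markers at 0 are given. Lists were described with no set test. The result of 1 gene that this rule names is not reported here.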

Additional observations from a re-analysis of the deposited data

Results flagged for a closer look

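Of 14 sets of values over the 9 knockdown tumours, 3 had a highest tumour whose gap to the next was a large part of the whole range, and in each it was knockdown 3. They were Myc, at 202 CPM, Pvt1, at 179 CPM, and the median deviation of chromosome 13, at 0.248 on the log2 scale. For normally spread values, chance flags about 1 in 20 such groups. The gap made up 0.499 of the range for Myc, 0.697 for Pvt1 and 0.801 for chromosome 13, where the critical value for 9 tumours is 0.493. Gene levels entered as CPM without a log, which stretches a high value, so that the rate may not hold for them. On the log2 scale Myc deviated by 0.67 in knockdown 3, 0.22 in knockdown 5, the next, and -0.46 in knockdown 9, the lowest. Its gap there was under the critical value. Pvt1 was added to the sets after its values were seen. Mxi1, at 0.483 in knockdown 7, and Mxd3, at 0.444 in knockdown 3, stayed under that value.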

How the results depend on the processing

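With only 2 controls, leaving 1 out decided most calls: leave-one-out fits called between 1290 and 4269 of all tested genes and between 0 and 1 members, and over them the log2 fold changes of Max, Mxi1 and Mnt ran from -0.09 to 0.21, from -0.65 to 0.11 and from -0.31 to 0.15. DESeq2 called 2 members, Mxd3 and Mycn. In the libraries with at least 100 Xist reads, an alternative chosen after seeing the data, Max was at -0.04. The chromosome 13 median of knockdown 3 was 0.28 over genes with at least 10 CPM and 0.29 relative to the controls. The fit with the replicate number as a block called 686 genes, with Mxd3 at 2.26 (adjusted p = 0.041) and Ezh2 at -1.55 (adjusted p = 0.057). The numbers share no stated source. Deviations of tumours with the same number correlated at -0.142 and 0.0165, but the 2 controls mirror each other about their mean. Pairs with different numbers therefore gave 0.142 and -0.0165, and these values cannot tell whether the numbers pair tumours. Over 18 alternatives Mxd3 stayed higher, between 1.85 and 2.33 with adjusted p from 4.7e-05 to 0.13, and passed in 16. Mycn stayed between 0.99 and 2.86, with adjusted p from 0.035 to 0.48.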

Other observations

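The E-box was also counted in the 250 bases upstream of the genes of the lists, matched by symbol to the RefSeq table. It was present in 7 of 27 matched genes (25.9%) of the translation and protein folding targets, against 6.86% of all genes in the table. The metabolic targets had it in 4 of 29 genes (13.8%) and the cell cycle targets in 2 of 15 (13.3%). The ribosome assembly targets had it in 4 of 43 (9.30%) and the genes repressed by Myc in 3 of 13 (23.1%). Cofactor lists also exceeded 6.86%, with 2 of 13 extended network genes (15.4%) and 2 of 15 Myc protein turnover genes (13.3%). The coactivators had 2 of 17 (11.8%) and the proliferation markers 1 of 10. The metabolic, cell cycle and ribosome assembly shares were thus no higher than that of the extended network. Of the glioma, neural stem and other cell type markers, only the macrophage and microglia list held it, in 1 of 9 (11.1%). Any of the 4 E2F words was present in 6 of 15 cell cycle targets (40.0%) and in 4 of 43 ribosome assembly targets (9.30%), against 2.16% of all genes. The other lists of the same kind had 2 of 27 translation and protein folding targets (7.41%), 1 of 29 metabolic targets (3.45%) and 0 of 13 genes repressed by Myc. For the proliferation markers the share was 20.0% (2 of 10). These shares describe letters in 1 window per entry, and no test was made.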
